A study of Mus musculus with 20 samples.

Results

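The genes described here are the aryl hydrocarbon receptor pathway genes Ahr, Arnt, Ahrr, Tiparp and Cyp1b1, 5 of the 46318 genes in the count files. They were chosen by name, by matching the NCBI GeneIDs of the files to gene symbols, and all 5 had enough counts to be among the 13307 genes tested. RNA came from macrophages grown from the bone marrow of female C57BL/6 mice with recombinant M-CSF, the cytokine under which marrow precursors become macrophages. The cultures carried no transgene or deletion that the labels name, and every group received a treatment lasting 24 h: DMSO (the solvent control), DSHN at 50 µM, GW3965 at 1 µM, or DSHN and GW3965 together at those doses, called the combination below. The labels call GW3965 an LXR (liver X receptor) agonist and DSHN an agonist of NR0B2, an orphan nuclear receptor. Each treatment had 5 biological replicates, 20 libraries in all. The labels do not say whether replicates came from separate mice, so p values measure the spread between these cultures, which may be technical.

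AHR is a ligand-activated transcription factor of the bHLH-PAS family. Without ligand it is held in the cytoplasm by a chaperone complex, and with ligand it enters the nucleus, pairs with ARNT and binds DNA at xenobiotic response elements. Among the genes it switches on are its own antagonists, AHRR, which competes for ARNT and for the DNA element, and TIPARP, an ADP-ribosyltransferase that modifies the receptor, along with cytochrome P450 enzymes such as CYP1B1. In macrophages the receptor is known for linking environmental and tryptophan-derived ligands to inflammatory gene expression.

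The promoter windows of the direct target genes and of Arnt are printed because the elements read by the AHR and ARNT pair have the core GCGTG, whose reverse complement is CACGC. Each window runs from 250 bases before to 50 bases after the gene's start, 5′ to 3′ on the gene's strand, from RefSeq on build GRCm38.p6, and capitals mark the cores found on either strand. Ahr has no entry there. Ahrr and Cyp1b1 are on the minus strand, and Tiparp and Arnt on the plus strand. The windows are chr13:74292282-74292581 for Ahrr, chr3:65528197-65528496 for Tiparp, chr17:79715012-79715311 for Cyp1b1 and chr3:95434140-95434439 for Arnt.
Ahrr: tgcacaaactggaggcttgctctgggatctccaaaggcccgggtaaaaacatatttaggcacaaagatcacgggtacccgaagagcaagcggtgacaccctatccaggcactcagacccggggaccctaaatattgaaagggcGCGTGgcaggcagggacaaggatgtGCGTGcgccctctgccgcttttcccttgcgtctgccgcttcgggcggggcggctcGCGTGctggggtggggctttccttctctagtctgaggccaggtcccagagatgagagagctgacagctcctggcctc
Tiparp: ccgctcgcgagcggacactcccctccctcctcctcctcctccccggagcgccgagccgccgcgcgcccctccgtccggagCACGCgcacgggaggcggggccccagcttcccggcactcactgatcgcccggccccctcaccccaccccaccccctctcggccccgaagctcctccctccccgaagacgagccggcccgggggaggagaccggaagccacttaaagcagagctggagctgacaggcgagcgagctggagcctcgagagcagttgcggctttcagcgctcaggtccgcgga
Cyp1b1: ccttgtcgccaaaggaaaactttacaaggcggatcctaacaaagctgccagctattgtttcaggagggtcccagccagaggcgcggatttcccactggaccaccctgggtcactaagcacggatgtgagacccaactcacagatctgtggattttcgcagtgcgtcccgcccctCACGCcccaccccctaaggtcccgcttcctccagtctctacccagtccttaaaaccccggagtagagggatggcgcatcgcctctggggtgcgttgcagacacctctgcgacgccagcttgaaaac
Arnt: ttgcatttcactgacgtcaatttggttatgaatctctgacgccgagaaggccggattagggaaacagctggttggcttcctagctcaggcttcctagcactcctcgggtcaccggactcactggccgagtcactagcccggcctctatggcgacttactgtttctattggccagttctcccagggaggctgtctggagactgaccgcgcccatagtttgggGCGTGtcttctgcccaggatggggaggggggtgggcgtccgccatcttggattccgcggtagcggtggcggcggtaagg
The Ahrr window holds 3 cores on the forward strand, whose first bases lie at −107, −82 and −27 from the start. The core at −27 is part of the longer element TNGCGTG, searched on both strands, and this longer form contains the core. Tiparp has 1 core on the reverse strand at −170, Cyp1b1 has 1 on the reverse strand at −76, and Arnt has 1 on the forward strand at −29. Of 32851 promoter windows of this length in the same table, 32.4% hold at least 1 core, 3.91% hold at least 3, and 5.07% hold the longer element. A single core is thus common, and 3 cores are not. These are matches of letters in a window and say nothing of binding.

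Library totals ran from 16855029 to 23796561 counts. The defining macrophage genes were abundant in all libraries: 10 macrophage markers together gave 17800 to 21800 CPM (counts relative to library size, scaled by TMM, a method that evens out library composition). Summed marker levels of other marrow cells reached at most 1.35 CPM for neutrophils, 2.17 CPM for dendritic cells, 4.14 CPM for mast cells and basophils, 13.2 CPM for T and NK cells, 11.2 CPM for endothelial cells and 0.994 CPM for B cells. The 7 erythroid and megakaryocyte markers gave 138 to 177 CPM with DMSO, 176 to 211 CPM with DSHN, 140 to 156 CPM with GW3965 and 225 to 270 CPM with the combination. Nearly all of that sum was the chemokine gene Pf4 (152.7 CPM ± 17.28 with DMSO and 247.8 CPM ± 16.38 with the combination), while the hemoglobin genes Hbb-bs and Hba-a1 had 0 counts in every library. The part of these transcripts in the results below was not tested. The combination libraries stood apart in how counts depended on gene length. The slope of log2 CPM on log2 exon length was −0.124 to −0.0943 in the 5 combination libraries and 0.00566 to 0.063 in the other 15. Values of named genes and gene groups in the combination against DMSO are therefore given also with a correction for exon length, a smooth curve fitted to each library. The treatment and this trend cannot be told apart in these libraries. In bulk RNA, fewer cells of a type and less RNA per cell cannot be told apart either. For the 2 tested erythroid and megakaryocyte markers the log2 fold changes of the combination against DMSO were −0.38 and 0.70. At adjusted p under 0.05, 1 was higher and 0 lower, where 31.9% and 32.9% of all tested genes were. With the length correction the values were −0.71 and 0.25, with 1 higher and 1 lower (30.2% and 28.2% of all tested genes).

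Divided by exon length, the levels of the 5 genes kept 1 order in all 20 libraries: Cyp1b1, Arnt, Tiparp, Ahrr, Ahr from high to low, with no overlap between neighbours. Cyp1b1 (GeneID 13078, chromosome 17, 80014369 to 80022490, minus strand, 5161 exon bases) had 32.8 CPM per kb ± 1.94 (SD, n = 5) with DMSO, higher than 85.9% of tested genes. Arnt (GeneID 11863, chromosome 3, 95341674 to 95404551, plus strand, 4552 exon bases) had 16.5 CPM per kb ± 0.43 with DMSO, above 73.3% of tested genes. Tiparp (GeneID 99929, chromosome 3, 65435868 to 65462939, plus strand, 4154 exon bases) had 10.04 CPM per kb ± 0.563, above 61.6%. The receptor and its repressor stood at the low end of this order. Ahrr (GeneID 11624, chromosome 13, 74359237 to 74440450, minus strand, 5799 exon bases) had 5.15 CPM per kb ± 0.42, above 46.5% of tested genes. Ahr (GeneID 11622, chromosome 12, 35547978 to 35584988, minus strand, 5494 exon bases) had 2.08 CPM per kb ± 0.273, above 30.4%. All coordinates of the genes are those of the files (GRCm39). Tiparp shares 186 exon bases, 4.48% of its length, with 4931440P22Rik on the opposite strand. Since the counting did not use strand, reads there cannot be assigned to one gene, but that gene had 9 to 23 counts per library against at least 630 for Tiparp.

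**Figure D1:**
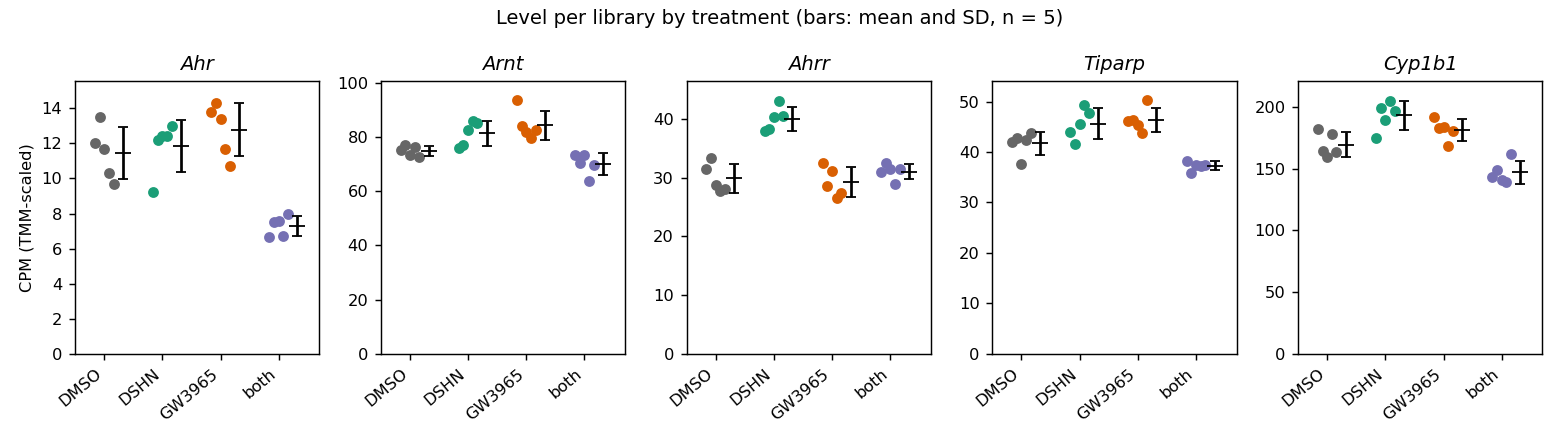
CPM (TMM-scaled, linear axes from 0) of Ahr, Arnt, Ahrr, Tiparp and Cyp1b1 in each of the 20 libraries by treatment, with bars for the mean and SD of 5 libraries. The combination libraries lie lowest for Ahr (6.66 to 8.0 CPM, below all other libraries), and the DSHN libraries lie highest for Ahrr (37.9 to 43.0 CPM).

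The receptor gene Ahr was lower in the combination than in every other treatment, and neither compound alone moved it past the test. Ahr CPM in replicates 1 to 5 was 12, 13.5, 11.7, 10.3 and 9.70 with DMSO, and 9.25, 12.2, 12.4, 12.4 and 13.0 with DSHN. It was 13.8, 14.3, 13.4, 11.7 and 10.7 with GW3965, and 6.66, 7.52, 7.57, 6.70 and 8.0 with the combination. The first 3 groups overlapped, and every combination library lay below every other library. DSHN replicate 1 was the lowest of the single-compound and DMSO libraries. Against DMSO, the log2 difference in Ahr was 0.04 with DSHN (SE 0.10, adjusted p = 0.817) and 0.15 with GW3965 (SE 0.10, adjusted p = 0.212). With the combination the log2 fold change was −0.66 (SE 0.10, adjusted p = 4.53e-06), a level 0.633 times that of DMSO. Against GW3965 alone the difference was −0.81 (adjusted p = 2.75e-07), and against DSHN alone −0.70 (adjusted p = 2.88e-06). The fall remained with the length correction, at −0.50 against DMSO (adjusted p = 0.00013), −0.67 against GW3965 and −0.55 against DSHN. Leaving out any 1 library gave −0.72 to −0.60 against DMSO. Ahr rests on 118 to 289 counts per library, so counting alone gives an expected variation of 6.3% to 8.6% between libraries, against 8.09% to 13.1% seen.

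Arnt, the partner that AHR needs to bind DNA and that the hypoxia factors share, was higher with GW3965 than with DMSO by a small margin, and lower with the combination than with either compound. Its CPM in replicates 1 to 5 was 75.2, 77.2, 73.3, 76.3 and 72.6 with DMSO, and 76.0, 77.2, 82.8, 86.2 and 85.3 with DSHN. It was 93.6, 84.2, 81.9, 79.7 and 82.7 with GW3965, and 73.6, 70.4, 73.5, 63.8 and 69.7 with the combination. All GW3965 libraries lay above all DMSO libraries, whereas 2 DSHN libraries lay within the DMSO range. The log2 fold change against DMSO was 0.17 with GW3965 (SE 0.05, adjusted p = 0.00329) and 0.12 with DSHN (SE 0.05, adjusted p = 0.0508). With the length correction the DSHN value was 0.14 (adjusted p = 0.0206), on the other side of the threshold. The combination differed from DMSO by −0.09 (SE 0.05, adjusted p = 0.0818), and by 0.01 with the length correction (adjusted p = 0.829). It fell by 0.26 on the log2 scale against GW3965 (adjusted p = 2.48e-05) and by 0.21 against DSHN (adjusted p = 0.000316), with no overlap of libraries in either comparison. The length-corrected values were −0.18 (adjusted p = 0.0014) and −0.12 (adjusted p = 0.0245).

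Ahrr, the repressor that AHR induces and that limits AHR activity, rose with DSHN alone and with no other treatment past the test. Its CPM in replicates 1 to 5 was 31.4, 33.4, 28.8, 27.7 and 28.1 with DMSO, and 37.9, 38.3, 40.4, 43.0 and 40.5 with DSHN. It was 32.5, 28.6, 31.2, 26.5 and 27.3 with GW3965, and 30.9, 32.5, 31.4, 28.9 and 31.4 with the combination. Every DSHN library lay above all 15 others, and the other 3 groups overlapped. On the log2 scale DSHN against DMSO gave 0.42 (SE 0.06, adjusted p = 4.28e-06), a level 33.5% above that with DMSO. GW3965 against DMSO gave −0.04 (SE 0.06, adjusted p = 0.637). The compounds therefore differed here: GW3965 against DSHN gave −0.45 (SE 0.06, adjusted p = 1.26e-06), although their doses differ. The combination fell by 0.37 on the log2 scale against DSHN alone (adjusted p = 5.92e-06). Against DMSO the combination gave 0.05 (adjusted p = 0.452), but with the length correction 0.23 (SE 0.05, adjusted p = 0.000847). Against GW3965 the value was 0.09 (adjusted p = 0.203) and 0.24 with the correction (adjusted p = 0.000622). Whether Ahrr was raised in the combination thus depended on the length correction, while its fall against DSHN kept its call with it (−0.21, adjusted p = 0.00203).

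Tiparp, which encodes the ADP-ribosyltransferase that feeds back on AHR, was slightly higher with each compound alone and lower with the combination. Its CPM in replicates 1 to 5 was 42.0, 42.7, 37.7, 42.4 and 43.8 with DMSO, and 43.9, 41.5, 45.6, 49.3 and 47.7 with DSHN. It was 46.2, 46.4, 45.4, 43.8 and 50.3 with GW3965, and 38.3, 35.9, 37.5, 37.2 and 37.4 with the combination. DSHN and DMSO libraries overlapped, the GW3965 libraries started where the DMSO libraries ended, and DMSO replicate 3 was the only library of another group within the combination range. DSHN against DMSO gave 0.13 (SE 0.05, adjusted p = 0.0448), a call that was lost when any of 16 of the 20 libraries was left out (0.09 to 0.16 over all 20). GW3965 against DMSO gave 0.15 (SE 0.05, adjusted p = 0.00987). The call was lost without GW3965 replicate 5 (0.12, adjusted p = 0.0549). The combination against DMSO gave −0.16 (SE 0.05, adjusted p = 0.0057), which was −0.08 with the length correction (adjusted p = 0.139). With a correction for exon length, genomic span and GC content together, chosen after seeing the data, it was −0.12 (adjusted p = 0.0421). Against each compound the fall was larger and the libraries did not overlap. It was −0.32 against GW3965 (adjusted p = 4.4e-06; length-corrected −0.26) and −0.29 against DSHN (adjusted p = 1.41e-05; length-corrected −0.23).

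Cyp1b1, which encodes a cytochrome P450 that oxidises aromatic hydrocarbons and estrogens, was the most abundant of the 5 genes, and it rose with DSHN and fell with the combination. Its CPM in replicates 1 to 5 was 182, 164, 159, 178 and 163 with DMSO, and 175, 199, 189, 205 and 197 with DSHN. It was 192, 183, 184, 168 and 180 with GW3965, and 143, 149, 141, 139 and 162 with the combination. DSHN replicate 1 lay within the DMSO range, and combination replicate 5 lay just above the lowest DMSO library. DSHN against DMSO gave 0.19 (SE 0.05, adjusted p = 0.00424), and GW3965 against DMSO gave 0.10 (SE 0.05, adjusted p = 0.0994; with the length correction 0.12, adjusted p = 0.0333). The combination against DMSO gave −0.21 (SE 0.05, adjusted p = 0.000591), and −0.06 with the length correction (adjusted p = 0.242). With length, span and GC content corrected together it was −0.20 (adjusted p = 0.00315), so the call depended on the correction used. The falls against GW3965 (−0.30, adjusted p = 6.87e-06) and against DSHN (−0.39, adjusted p = 1.34e-07) kept their calls with the correction, at −0.18 (adjusted p = 0.00181) and −0.27 (adjusted p = 3.24e-05). Cyp1b1 is also a fibroblast gene, and collagen transcripts were present. The summed level of 7 fibroblast markers in DMSO libraries was 2280 to 2880 CPM. It was 2430 to 3080 CPM in DSHN libraries, 2540 to 3330 CPM in GW3965 libraries and 1900 to 2320 CPM in combination libraries. Of 5 tested fibroblast markers all 5 were lower in the combination than with DMSO, by a median log2 fold change of −0.41. With the length correction 3 were lower and the median was −0.26. Of all tested genes 32.9% were lower in this comparison, and 28.2% with the length correction. Col1a1 was the largest part of the sum, with 1327 CPM ± 126.6 with DMSO and 1171 CPM ± 79.0 with the combination, whereas Lum had 0 to 4 counts and Dcn 1 to 14 counts in any library. The part of these transcripts in the Cyp1b1 result was not tested.

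Against DMSO, all calls among the 5 genes were upward with the single compounds and downward with the combination. With DSHN against DMSO, 3 of the 5 rose (Ahrr, Cyp1b1 and Tiparp) and 0 fell, where 28.9% of all tested genes were called, 14.1% higher and 14.8% lower. With GW3965 against DMSO, 2 rose (Arnt and Tiparp) and 0 fell, where 46.5% of tested genes were called, 23.6% higher and 23.0% lower. Scaling by total counts only shifted that background to 2267 genes higher and 4000 lower and took away the Tiparp call. With the combination against DMSO, 3 fell (Ahr, Cyp1b1 and Tiparp) and 0 rose, where 64.8% of tested genes were called, 31.9% higher and 32.9% lower. With the length correction 1 fell (Ahr) and 1 rose (Ahrr). With length, span and GC content corrected together 3 fell (Ahr, Cyp1b1 and Tiparp) and 1 rose (Ahrr). These 3 comparisons share their DMSO libraries. The combination was lower than GW3965 for 4 of 5 genes (background 57.8% called, 28.3% higher and 29.5% lower) and lower than DSHN for 5 of 5 (background 58.1% called, 28.6% higher and 29.5% lower). GW3965 was lower than DSHN for 1 gene, Ahrr, and higher for 0 (background 17.1% called, 8.3% higher and 8.82% lower, and with total counts only 768 genes higher and 1641 lower in place of 1104 and 1174). The other 4 differences between the single compounds were 0.11 (SE 0.10) for Ahr, 0.05 (SE 0.05) for Arnt, 0.03 (SE 0.05) for Tiparp and −0.09 (SE 0.05) for Cyp1b1. A missed threshold does not show that the compounds act alike.

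In the TMM-scaled fit the combination fell short of the sum of the single effects for all 5 genes. The interaction, which is the effect of DSHN in the presence of GW3965 minus its effect in the absence, was negative for all 5, where 50.2% of tested genes were called, 23.7% positive and 26.5% negative. With total counts only that background was 4069 positive and 2853 negative, and the 5 genes kept their calls. For Ahr the log2 effects of the single compounds added up to 0.18, and the combination had −0.66, an interaction of −0.84 (SE 0.14, adjusted p = 2.27e-05; length-corrected −0.72). For Cyp1b1 the sum was 0.28 and the combination −0.21, an interaction of −0.49 (SE 0.07, adjusted p = 1.83e-06; length-corrected −0.39). For Tiparp the sum was 0.28 and the combination −0.16, an interaction of −0.45 (SE 0.07, adjusted p = 7.32e-06; length-corrected −0.40). The remaining pair had the smaller interactions. Arnt had a sum of 0.29 and a combination of −0.09, an interaction of −0.38 (SE 0.07, adjusted p = 2.57e-05; length-corrected −0.32). Ahrr had a sum of 0.38 and a combination of 0.05, an interaction of −0.33 (SE 0.08, adjusted p = 0.00175; length-corrected −0.19, adjusted p = 0.0422). With a correction for exon length, genomic span and GC content together, chosen after seeing the data, the Ahrr interaction was −0.13 (adjusted p = 0.141).

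**Figure D2:**
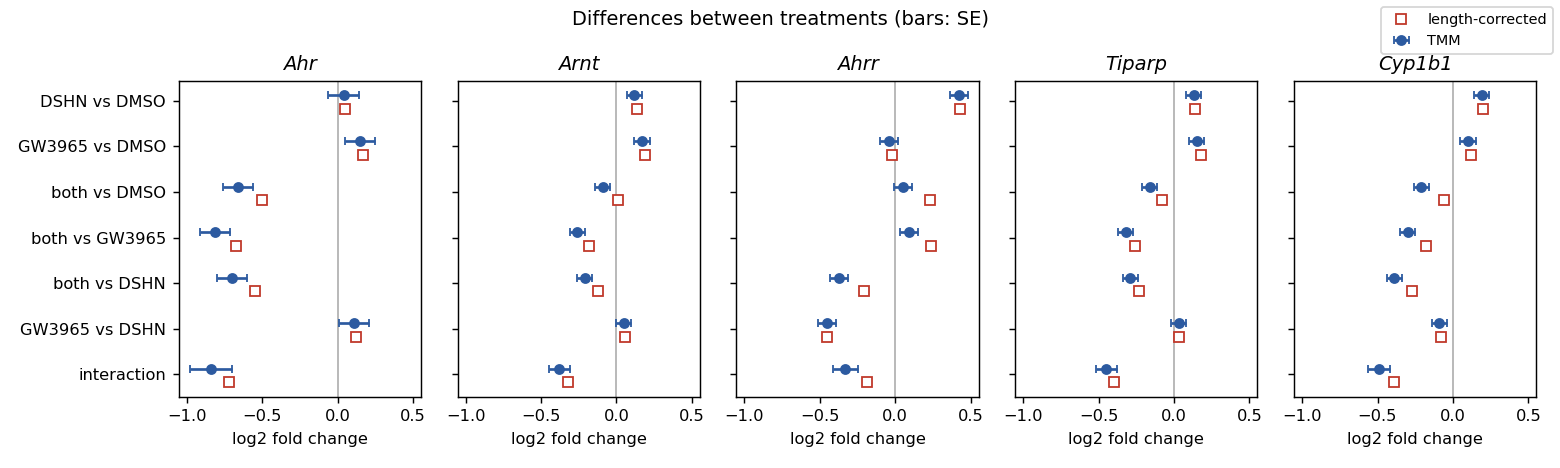
Log2 fold changes of the 5 genes for the 6 pairwise comparisons and the interaction, with SE bars for the TMM-scaled fit (filled circles) and the length-corrected values without bars (open squares). All 5 interactions lie below 0 by both scalings, and the open squares sit to the right of the circles in each comparison of the combination with another treatment.

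The 5 genes are longer than most, which bears on the comparisons of the combination. The share of tested genes that are shorter was 55.2% for Tiparp, 60.2% for Arnt, 66.6% for Cyp1b1, 69.6% for Ahr and 71.9% for Ahrr. All tested genes were sorted by exon length into 10 bins of equal size. The median log2 fold change of the combination against DMSO ran from 0.42 in the shortest bin to −0.29 in the longest. It was −0.07 in the bin that holds Tiparp, −0.11 in that of Ahr, Arnt and Cyp1b1, and −0.17 in that of Ahrr. Ahr (−0.66) lay below the lower quartile of its bin, −0.36. Ahrr (0.05) lay near the upper quartile of its own, 0.07, and Arnt, Tiparp and Cyp1b1 lay between the quartiles of theirs. In the single-compound comparisons the medians of the bins stayed between −0.02 and 0.09.

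**Figure D3:**
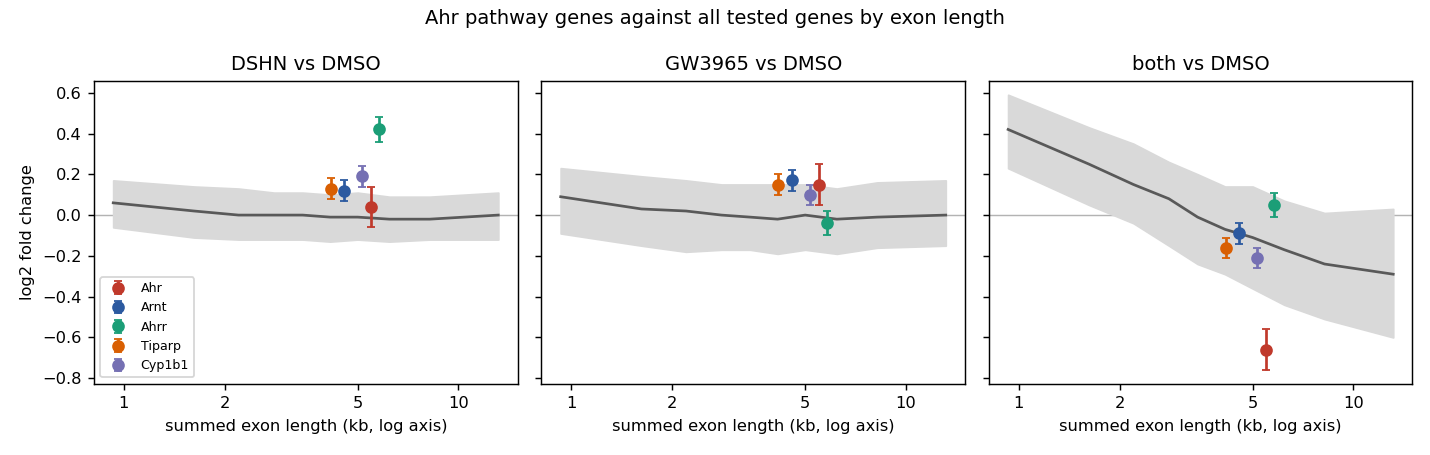
Log2 fold change against DMSO for DSHN, GW3965 and the combination, plotted against summed exon length in kb (log axis). The line and band give the median and quartiles of all tested genes by length bin, and points with SE bars are the 5 genes. With the combination the line falls from 0.42 to −0.29 and Ahr lies below the band. With DSHN alone Ahrr lies furthest above the band, and Cyp1b1, Tiparp and Arnt lie above it by less.

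The balance of repressor to receptor transcripts within a library does not depend on library scaling. It was computed as Ahrr over Ahr counts per exon base, a ratio chosen after the gene values were seen and given as a description. It was 2.49, 2.34, 2.33, 2.54 and 2.74 in the DMSO libraries, and 3.88, 2.98, 3.09, 3.28 and 2.96 with DSHN. It was 2.24, 1.90, 2.20, 2.15 and 2.41 with GW3965, and 4.40, 4.10, 3.92, 4.09 and 3.71 with the combination. The combination and DSHN libraries lay above all DMSO and GW3965 libraries. In the TMM-scaled fit this came with more Ahrr with DSHN and with less Ahr with the combination. With the length correction the combination had both less Ahr (−0.50 against DMSO) and more Ahrr (0.23). The share of each gene in the ratio of the combination thus depended on the scaling. The combination overlapped with DSHN in DSHN replicate 1, the library with the lowest Ahr level among DSHN cultures. The mean ratio was 2.49 ± 0.169 (SD, n = 5) with DMSO and 4.04 ± 0.251 with the combination, a factor of 1.63. The 2 genes have similar exon lengths, and the difference on the log2 scale was 0.70, and 0.73 from the length-corrected fit. The ratio of Ahr to its partner Arnt was 0.127 ± 0.0148 with DMSO and 0.12 ± 0.0115 with DSHN. It was 0.125 ± 0.0132 with GW3965 and 0.0862 ± 0.0073 with the combination. Its highest combination library (0.0951) lay below the lowest of all others (0.101).

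**Figure D4:**
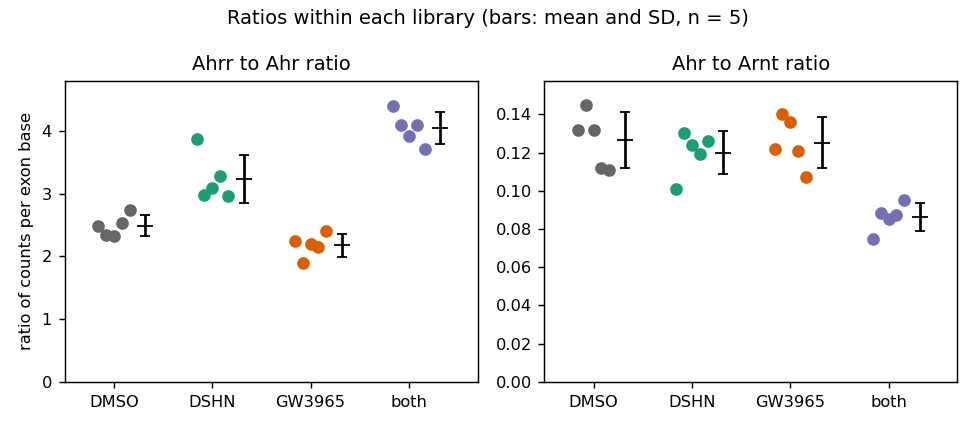
Ratios of Ahrr to Ahr and of Ahr to Arnt (counts per exon base, linear axes from 0) in each library, with mean and SD bars of 5 libraries. The Ahrr to Ahr ratio is at least 2.96 in all DSHN and combination libraries and at most 2.74 in all DMSO and GW3965 libraries, and the Ahr to Arnt ratio is lowest with the combination.

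Across the 20 libraries, 4 of the genes varied together and Ahrr stood aside. Pearson's r of log2 CPM was 0.84 for Arnt with Tiparp, 0.82 for Ahr with Cyp1b1, 0.81 for Tiparp with Cyp1b1, 0.79 for Ahr with Arnt and for Arnt with Cyp1b1, and 0.73 for Ahr with Tiparp. Ahrr had r of 0.23 with Ahr, 0.27 with Tiparp, 0.34 with Arnt and 0.51 with Cyp1b1. The libraries share their treatments and their length trend, so these values are descriptions. Among 9818 named genes that averaged 5 CPM or more, those most like Ahr over the 20 libraries were Frs2 (r = 0.963), Ddx3x (0.962) and Rabgap1 (0.957). Those most like Arnt were Kif13b (0.962), Tlr8 (0.952) and Notch2 (0.951). Tiparp was nearest to Cacul1 (0.91), Gas2l3 (0.908) and Vps13c (0.90), and Cyp1b1 to Zfp266 (0.93), Ccdc93 (0.921) and Uprt (0.92). All of these genes had their lowest group mean in the combination. All were also longer than the median tested gene (3758 exon bases), from 4571 bases for Ddx3x to 21868 for Rabgap1. The part of the length trend in their likeness was not tested. Ahrr was nearest to Emb (0.941), Ms4a7 (0.915) and Prkcb (0.897), whose means were highest with DSHN: Emb had 149 CPM with DMSO and 191 CPM with DSHN, beside 139 CPM with GW3965 and 144 CPM with the combination.

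Of 69 other genes of the pathway listed by role, 51 were tested. With DSHN 8 rose and 10 fell, with GW3965 9 rose and 11 fell, and with the combination 7 rose and 25 fell against DMSO. Over all tested genes 14.1% rose and 14.8% fell with DSHN, 23.6% and 23.0% with GW3965, and 31.9% and 32.9% with the combination, so the counts with each single compound were near this background. The median log2 fold change of the 51 was −0.04, −0.02 and −0.19 in these comparisons, beside 0.00, 0.01 and 0.01 over all tested genes. With the length correction the combination had 12 higher and 20 lower (30.2% and 28.2% of all tested genes) and a median of −0.09. The interaction was positive for 10 and negative for 22 (23.7% and 26.5% of all tested genes), and with the length correction for 10 and 19 (21.5% and 22.6%).

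The classical detoxification targets were mostly silent. Cyp1a1, the hydrocarbon-inducible P450 most used as a readout of AHR activity, had 0 to 3 counts in any library, and Cyp1a2 had 0 to 1. At these counts a fall or a small rise in either was not detectable. Neither gene rose beyond these few counts with any treatment. Gsta1, Gsta2 and Aldh3a1 had at most 5 counts in a library. Of 10 listed xenobiotic enzyme genes 3 were tested, and all of these rose with DSHN, where 14.1% of all tested genes did. Nqo1, a quinone reductase that both AHR and NRF2 control, had 26.8 CPM ± 2.05 (SD, n = 5) with DMSO and 33.8 ± 1.88 with DSHN. It had 19.1 CPM ± 1.17 with GW3965 and 32.5 ± 2.05 with the combination. Against DMSO it rose with DSHN (0.33, SE 0.06, adjusted p = 6e-05), fell with GW3965 (−0.49, SE 0.06, adjusted p = 1.78e-07) and rose with the combination (0.28, adjusted p = 0.000135; length-corrected 0.29), with no overlap of libraries in any of the 3 comparisons. Unlike the 5 genes above, Nqo1 had a positive interaction (0.43, SE 0.08, adjusted p = 8.7e-05; length-corrected 0.42). The glucuronosyltransferase transcript Ugt1a7c had 67.4 CPM ± 4.89 with DMSO and 42.5 ± 3.21 with the combination (−0.67, SE 0.08, adjusted p = 2.31e-08; length-corrected −0.66). Its call with DSHN was higher (0.21, adjusted p = 0.0327) and with GW3965 lower (−0.19, adjusted p = 0.0412; length-corrected −0.17, adjusted p = 0.0649). Ugt1a6a followed with 0.38 with DSHN (adjusted p = 0.0153) and −0.44 with the combination (adjusted p = 0.00463; length-corrected −0.44). Genes of the Ugt1a cluster share exons, so the split of reads between these 2 of the 3 tested enzyme genes is uncertain.

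The list for the chaperone complex that holds AHR in the cytoplasm had 4 tested genes, among them the ubiquitin ligase gene Stub1. Hsp90aa1, Ptges3 and Stub1 each changed against DMSO in at least 1 treatment, and Hsp90ab1 did not. Hsp90ab1 had 1633 CPM ± 35.5 with DMSO and did not pass the test in any comparison, with log2 fold changes of −0.03 to 0.05, but with the length correction it was lower in the combination than with GW3965 (−0.06, adjusted p = 0.0391). Hsp90aa1 fell with each compound (−0.28 with DSHN, adjusted p = 0.000132, and −0.34 with GW3965, adjusted p = 4.49e-06) and with the combination (−0.24, adjusted p = 0.000181; length-corrected −0.28). Ptges3, the co-chaperone p23, fell with GW3965 (−0.22, adjusted p = 0.00191). Of all tested genes 14.1% rose and 14.8% fell with DSHN, 23.6% and 23.0% with GW3965, and 31.9% and 32.9% with the combination. With the length correction the combination had 30.2% and 28.2%. Of the 4 listed genes, 0 rose and 1 fell with DSHN, and 0 rose and 2 fell with GW3965. With the combination 1 rose and 1 fell (0 and 1 with the length correction). The riser was Stub1, a ubiquitin ligase gene (0.15, adjusted p = 0.0457; length-corrected −0.11, adjusted p = 0.128).

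Among other bHLH-PAS genes, whose proteins share the partner ARNT or its relatives, 8 of 11 were tested, and with the combination 1 rose and 6 fell, where 31.9% and 32.9% of all tested genes did. Length-corrected, 1 rose and 3 fell (background 30.2% and 28.2%). With DSHN alone 1 rose and 2 fell (background 14.1% and 14.8%). With GW3965 alone 1 rose and 0 fell (background 23.6% and 23.0%). Hif1a, the hypoxia-inducible factor that also pairs with ARNT, had 210.0 CPM ± 8.98 with DMSO and 155.2 ± 5.62 with the combination (−0.44, SE 0.04, adjusted p = 4.89e-11; length-corrected −0.30). Hif1a was also lower with DSHN (−0.13, adjusted p = 0.00664), and had −0.08 with GW3965 (adjusted p = 0.0676). Its relative Epas1 rose with all 3 treatments: 0.23 with DSHN (adjusted p = 0.000847), 0.56 with GW3965 (adjusted p = 4.48e-10) and 0.28 with the combination (adjusted p = 1.47e-05; length-corrected 0.44). The interaction for Epas1 was −0.50 (adjusted p = 1.3e-06; length-corrected −0.38). The clock genes Clock (−0.38, adjusted p = 6.64e-09) and Bmal1 (−0.30, adjusted p = 8.07e-05) fell with the combination, and length-corrected they had −0.12 (adjusted p = 0.00587) and −0.08 (adjusted p = 0.248).

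The 9 coregulator genes were all tested, and with the combination against DMSO 7 fell and 0 rose, where 32.9% and 31.9% of all tested genes did. The corepressor gene Ncor1 fell by 0.68 on the log2 scale (adjusted p = 2.73e-11; length-corrected −0.42), and the coactivator gene Ncoa1 by 0.65 (adjusted p = 6.37e-09; length-corrected −0.40). Length-corrected, 5 fell and 1 rose (28.2% and 30.2% of all tested genes), the 1 being the acetyltransferase gene Crebbp (0.18, adjusted p = 0.000228). With DSHN alone 1 rose and 0 fell (background 14.1% and 14.8%), and with GW3965 alone 4 rose and 0 fell (background 23.6% and 23.0%). Crebbp was among the risers in both (0.14, adjusted p = 0.0135, and 0.30, adjusted p = 1.71e-06).

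Genes reported elsewhere as AHR targets did not share a direction. Of 13 tested, 2 rose and 6 fell with DSHN, 3 rose and 4 fell with GW3965, and 3 rose and 4 fell with the combination (6 and 4 with the length correction). The shares of all tested genes that rose and fell were 14.1% and 14.8%, 23.6% and 23.0%, and 31.9% and 32.9% (30.2% and 28.2% with the length correction), so the counts with GW3965 and with the combination were near the background before that correction. Serpinb2, an inhibitor of plasminogen activators, had 10.25 CPM ± 2.69 with DMSO and 2.11 ± 0.45 with DSHN. It had 1.5 CPM ± 0.70 with GW3965 and 1.43 ± 0.448 with the combination, and its DMSO libraries lay above all others. Its log2 fold changes were −2.26, −2.74 and −2.84 (adjusted p = 4.74e-09, 8.79e-11 and 2.69e-11), the last being −2.99 with the length correction. Lpl, which encodes lipoprotein lipase and is also an LXR target, fell with DSHN (−0.96, adjusted p = 1.33e-14) and rose with GW3965 (0.30, adjusted p = 2e-06) and with the combination (0.18, adjusted p = 0.000585; length-corrected 0.25). Entpd1, which encodes the ectonucleotidase CD39, rose with DSHN (0.47, adjusted p = 0.000413) and with GW3965 (0.80, adjusted p = 7.51e-08), and had 0.09 with the combination (adjusted p = 0.394). The combination passed the test for Entpd1 with the length correction (0.23, adjusted p = 0.0338). Its interaction was −1.18 (SE 0.13, adjusted p = 7.94e-08; length-corrected −1.09), in the direction of the 5 genes described first.

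Of the enzymes that start the breakdown of tryptophan toward AHR ligands, Ido1, Ido2, Tdo2 and Il4i1 were at or near 0. Ido1 had 0 to 1 counts in any library, Ido2 0 to 3, Tdo2 1 to 6 and Il4i1 0 to 3. Kmo, which hydroxylates kynurenine, rose with DSHN from 0.719 CPM ± 0.388 to 1.83 ± 0.431 (1.29, SE 0.31, adjusted p = 0.0024). Afmid, which makes kynurenine from its formyl precursor, was detected at 4.71 CPM ± 0.244 with DMSO and fell with GW3965 (−0.45, SE 0.11, adjusted p = 0.00177). The aminotransferase genes Kyat3 (4.10 CPM ± 0.588 with DMSO) and Kyat1 (1.85 CPM ± 0.532) were detected too and did not pass the test in any comparison with DMSO. Of the 5 tested genes of this group, 1 rose and 0 fell with DSHN, 0 rose and 1 fell with GW3965, and 1 rose and 0 fell with the combination. Of all tested genes 14.1% and 14.8%, 23.6% and 23.0%, and 31.9% and 32.9% did so. With the length correction 1 rose and 1 fell with the combination, the 1 that fell being Aldh1a2, a retinoid enzyme gene (−0.32, adjusted p = 0.0168; −0.20, adjusted p = 0.119 without it).

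Of 9 relatives of Tiparp among ADP-ribosyltransferases and related zinc finger proteins, 0 rose and 5 fell with the combination against DMSO, where 31.9% and 32.9% of all tested genes did. Length-corrected, 2 rose and 4 fell (background 30.2% and 28.2%). Parp1, the DNA damage sensor, fell with DSHN (−0.20, adjusted p = 0.000431), GW3965 (−0.18, adjusted p = 0.000523) and the combination (−0.57, SE 0.04, adjusted p = 2.81e-12; length-corrected −0.53). Zc3hav1, an antiviral zinc finger gene, fell with the combination by 0.53 on the log2 scale (adjusted p = 2.1e-10; length-corrected −0.30), and Parp14 by 0.60 (adjusted p = 1.31e-07; length-corrected −0.35). Parp8 rose with GW3965 (0.51, adjusted p = 1.33e-07).

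**Figure D5:**
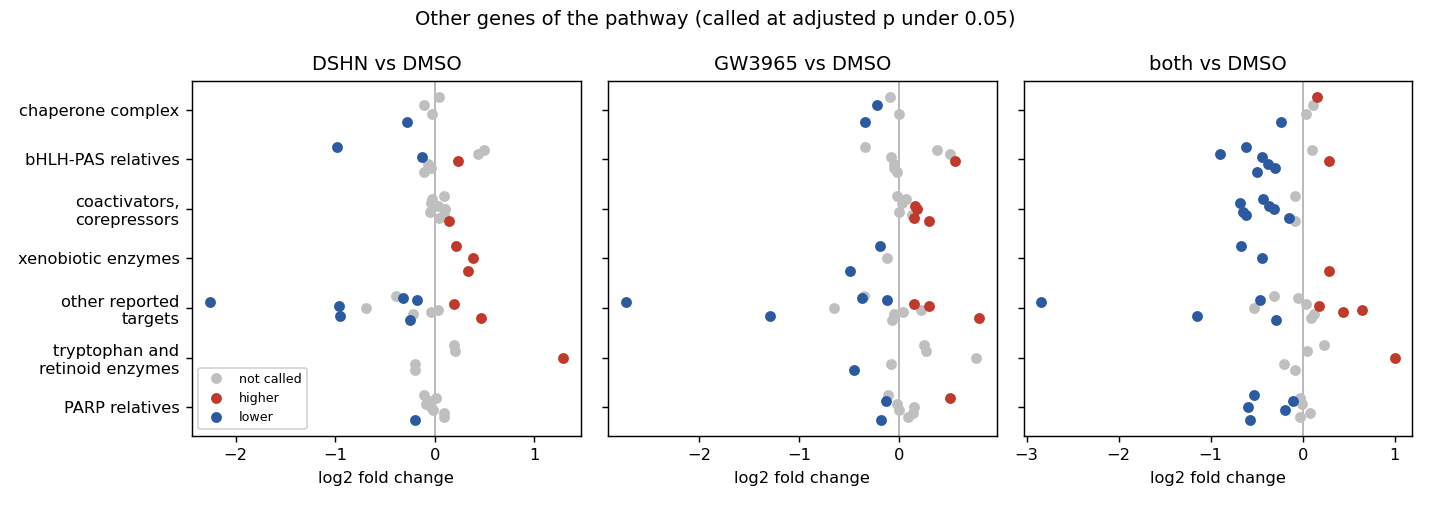
Log2 fold change against DMSO of the 51 other tested pathway genes, grouped by role, for DSHN, GW3965 and the combination, with horizontal axes of differing range. Points are genes, in red where higher and blue where lower at adjusted p under 0.05 and grey otherwise, and with the combination 7 of 9 coactivators and corepressors are blue.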

How the data were processed

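Messenger RNA of 20 cultures was sequenced after stranded library preparation (Kapa), per the labels. Reads were aligned with STAR and counted per gene with featureCounts 2.0.0 on GRCm39 with RefSeq annotation, per the file headers, whose commands hold no strand option. The deposited values are raw counts by GeneID. Symbols came from a RefSeq table (44749 of 46318 genes), and genes without a symbol held 0.4739% of counts. The members and gene lists were chosen with earlier results of these data known, and 2 listed genes are not reported here.

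After filterByExpr, counts with TMM factors went into edgeR's quasi-likelihood test (edgeR 4.0.16, R 4.3.3), with 1 mean per treatment and all 20 libraries in 1 fit. Benjamini-Hochberg adjustment ran over all 13307 genes, called under 0.05. All 5 members passed the filter, so a planned exact test for members below it was not needed. Named genes were the 5 members, Cyp1a1, Cyp1a2, Nqo1, Hsp90ab1, Hif1a and up to 3 called genes per list and contrast with the smallest adjusted p, and the 3 genes most correlated with each member (log2 CPM, prior count 2). Genes named beside these (collagen and other fibroblast markers, Gsta1, Gsta2, Aldh3a1, Ido1, Ido2, Tdo2, Il4i1, Kyat1, Kyat3, Aldh1a2, Pf4, Hbb-bs, Hba-a1 and 4931440P22Rik) were chosen after their values were seen.

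Replicates varied beyond counting error (chi-square per degree of freedom 2.468 to 13.27 over 40 pairs, biological coefficient of variation 0.05361). Alternatives were DESeq2 1.42.0 and its size factors, total counts only, other filters, limma 3.58.1 voom, only the groups compared, a replicate block, a length correction (spline with 5 degrees of freedom per library) and leaving out each library. Length with genomic span and GC content (known for 12738 tested genes) was added after seeing the data. The fits were tested on simulated data.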

Additional observations from a re-analysis of the deposited data

Results flagged for a closer look

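In groups of 5 libraries, 8 of 152 sets of values had 1 library far from the other 4 (gap over range above Dixon's 0.71), and chance gives this in about 1 in 20 sets. Ahr was 9.25 CPM in DSHN replicate 1, against 12.2 to 13.0 in the others, and Tiparp 37.7 CPM in DMSO replicate 3, against 42.0 to 43.8. DSHN replicate 1 also stood high for Hsp90aa1 (319 CPM, others 296 to 300) and Lpl (2990 CPM, others 2630 to 2720). In the combination, replicate 3 was high for Afmid (5.37 CPM, others 4.14 to 4.41) and Kmo (2.31 CPM, others 1.08 to 1.36), and replicate 4 for Hmox1 (1130 CPM, others 927 to 977) and Serpinb2 (2.21 CPM, others 1.13 to 1.37).

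The effect of DSHN differed with and without GW3965 (interaction in edgeR, adjusted p under 0.05) for 32 of 38 named genes. Of these, 7 were positive and 25 negative. Over all tested genes 50.2% were called, 23.7% positive and 26.5% negative. With the length correction that background was 21.5% positive and 22.6% negative. Many of the named genes were picked because they were called in some contrast, the interaction included. A high count was therefore built in. The 5 members were negative: Ahr −0.84, Cyp1b1 −0.49, Tiparp −0.45, Arnt −0.38 and Ahrr −0.33. Positive were Serpinb2 (2.16), Lpl (0.84), Afmid (0.57), Hmox1 (0.44), Ptges3 (0.44), Nqo1 (0.43) and Hsp90aa1 (0.38). Among coregulators the values were −0.84 for Ep300, −0.67 for Ncor1, −0.60 for Ncoa1, −0.59 for Ncoa2, −0.56 for Ncoa3, −0.52 for Crebbp and −0.35 for Cul4b. Among bHLH-PAS genes they were −0.50 for Epas1, −0.27 for Clock, −0.23 for Hif1a and −0.21 for Bmal1. The others were Entpd1 (−1.18), Kmo (−1.06), Ugt1a6a (−0.71), Parp14 (−0.71), Ugt1a7c (−0.69), Parp8 (−0.55), Zc3hav1 (−0.31), Nfe2l2 (−0.30) and Parp1 (−0.20). All these interaction values are without the length correction. With it the call was lost for Clock (−0.02, adjusted p = 0.794), Zc3hav1 (−0.10, adjusted p = 0.177) and Bmal1 (0.05, adjusted p = 0.642).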

How the results depend on the processing

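Of 345 values of the 5 genes under 10 alternatives, 323 kept their direction and side of the threshold. DESeq2 size factors and limma voom changed 0 of 35 each. A replicate block also changed 0 of 35 (Ahr in the combination against DMSO was −0.65 with it), and same-numbered libraries did not meet the criterion for pairing, an r over 0.1 in every pair: over 30 pairs r was −0.205 to 0.247, above 0.1 in 10. The 15 pairs without a DSHN library were all positive (0.0268 to 0.247), whereas 3 of the 15 with one were positive (−0.205 to 0.147). Of 20 libraries 13 correlated best with their own number. These values give a hint of pairing from the data, not shared by the pairs with a DSHN library. Ahr was higher with GW3965 than with DMSO in 5 of 5 same-numbered pairs, and had 0.15 with the block (adjusted p = 0.186). With the length correction, Ahrr in the combination passed the test against DMSO (0.23) and GW3965 (0.24), Arnt with DSHN (0.14) and Cyp1b1 with GW3965 (0.12) passed against DMSO, and the combination against DMSO lost its call for Cyp1b1 (−0.06) and Tiparp (−0.08). With length, span and GC content, Ahrr had 0.32 and 0.31, Arnt with DSHN 0.14 and Cyp1b1 with GW3965 0.13, all past the threshold, and calls were lost for the Ahrr interaction (−0.13) and Arnt in the combination against DSHN (−0.07). Under it the combination against DMSO kept its call for Cyp1b1 (−0.20, adjusted p = 0.00315) and Tiparp (−0.12, adjusted p = 0.0421). The log2 Ahrr to Ahr ratio of the combination then moved to 0.87 against DMSO, 1.03 against GW3965 and 0.46 against DSHN. With total counts only, Ahrr in the combination against GW3965 (0.15) and Arnt in the combination against DMSO (−0.09) passed, and Tiparp lost its calls with DSHN (0.11) and GW3965 (0.10). Arnt with DSHN passed with no filter (0.13), a stricter filter (0.12) and only the groups compared (0.12). Tiparp with DSHN did not pass with no filter (0.14), DESeq2 (0.13) or only the groups compared (0.13). Leaving out 1 library, Arnt with DSHN (0.10 to 0.14) passed in 4 of 20 cases, without DSHN replicate 1 or 2, combination replicate 4 or GW3965 replicate 1, Cyp1b1 with GW3965 (0.07 to 0.12) in 1, without GW3965 replicate 4, Tiparp with GW3965 (0.12 to 0.17) failed in 1, and Tiparp with DSHN (0.09 to 0.16) in 16. Of the 51 other pathway genes, 12 were higher in the combination than with DMSO under the length correction, against 7 without it. Why these changed was not tested. Depth limits Ahr most, at 118 to 289 counts per library.

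Of 6897 values of 33 other named genes under the alternatives, 6604 kept call and direction, 175 lost and 97 gained a call, and 21 reversed, all under the 2 length corrections and all in comparisons of the combination. Length-corrected, the combination against DMSO had 0.18 for Crebbp, 0.23 for Parp8 and −0.11 for Stub1. With span and GC content it had 0.29 for Crebbp, 0.36 for Parp8, −0.13 for Stub1, −0.10 for Hsp90ab1 and 0.02 for Ncoa2. Against DSHN the values were 0.03 and 0.13 for Crebbp and 0.20 and 0.32 for Parp8 with the first and second correction, and 0.15 for Cd36 and −0.09 for Hsp90ab1 with the second. Against GW3965 they were 0.01 and 0.02 for Bmal1 and −0.06 and −0.11 for Hsp90ab1. In the interaction they were 0.05 and 0.06 for Bmal1, and −0.09 for Hsp90ab1 with the second.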
